A study of Mus musculus with 12 samples.

Results

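The regions described here were called accessible in every E1 library and in no E0 or E4 library of the mouse dentate gyrus. Peaks of 12 lists were merged into regions wherever they shared at least 1 bp, and a region was a member when it held a peak in 4 of 4 E1 libraries, 0 of 4 E0 libraries and 0 of 4 E4 libraries. Of 170710 merged regions on chromosomes 1 to 19 and X, 522 met this rule, which is 0.306% of all regions. The peak calls themselves chose the members, so that their presence at E1 and absence at E0 and E4 is their definition and not a result. They are called E1-only regions below.

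Each library was made by ATAC-seq, where accessible DNA is tagged by a transposase and then sequenced, from the microdissected dentate gyrus of C57BL/6 mice aged 8 weeks. The labels name 3 groups, E0, E1 and E4, of 4 replicates each, and give no treatment or sex. Each replicate was taken as 1 mouse. Knowledge of the published study, rather than any label, gives E0 as unstimulated mice and E1 and E4 as mice taken 1 h and 4 h after electroconvulsive stimulation, a brief current that makes neurons fire together. No allele or transgene is named for any group. The tissue was taken whole, so more cells of a type and more open chromatin per cell cannot be told apart in any value below. Markers of the dentate gyrus were not checked, because no annotation of the build of the lists was used here.

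The dentate gyrus is the entry point of the hippocampal circuit and consists mostly of granule neurons, densely packed excitatory cells that fire sparsely at rest. When such neurons are strongly activated they switch on immediate early genes, many of which encode transcription factors such as Fos, Jun and Egr proteins. Fos and Jun form the AP-1 complex, which binds at enhancers, short regulatory stretches of DNA often far from the gene they control, and the DNA at such sites can become accessible within the first hours. An accessible region that is seen early and not later is one kind of trace that such activity can leave.

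All coordinates are in mm9, as in the lists. The gene and promoter tables at hand were of GRCm38 and could not be joined to them, so genes, promoters, exons and introns are not named for any region, and no DNA sequence was read. The lists held 36861 to 77130 peaks in E0, 64152 to 84776 in E1 and 24426 to 104120 in E4. E4 replicate 1 had the 104120 peaks and the other E4 lists had 24426 to 34863, so E4 replicate 1 stood apart from its group before any region was chosen. Read counts are not in the lists and the depth of each library is unknown. The absence of a peak means that none was called, not that the chromatin was shut.

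The same rule with the groups exchanged found fewer regions. A peak in 4 of 4 E0 libraries and in no E1 or E4 library was held by 85 regions (0.0498% of all regions), and 6 regions (0.00351%) were E4-only. These counts are descriptive, and the part of list length in them was not tested. When all lists were trimmed to the 24426 best scores, as many as the shortest held, there were 335 E1-only, 326 E0-only and 32 E4-only regions.

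The E1-only regions were a small part of what was open in all 4 E1 mice. A peak in 4 of 4 E1 libraries was held by 35902 regions, of which 5579 had no E0 peak (3.27% of all regions) and 765 had no E4 peak (0.448%). The 522 members were 1.45% of the first set, 9.36% of the second (95% Wilson interval 8.62 to 10.1) and 68.2% of the third (64.9 to 71.4). Intervals of shares of regions here and below cover counting error only. The second share rests on 1 library: without E4 replicate 1, 60.1% of the regions gained at E1 had no E4 peak.

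Membership depended mostly on E4 replicate 1. Of the 5579 regions with a peak in all E1 and no E0 libraries, 566 (10.1%) had no peak in E4 replicate 1. In E4 replicates 2, 3 and 4, 4149 (74.4%), 4917 (88.1%) and 4542 (81.4%) had none. Once E4 replicate 1 lacked a peak, the other E4 libraries removed 44 more regions. In the other order, 3355 regions had no peak in E4 replicates 2, 3 and 4, and 2833 of them (84.4%) had a peak in E4 replicate 1. With E4 replicate 1 left out of the merging and of the rule, 3394 regions would be members.

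The E0 libraries weighed more evenly. Of the 765 regions with a peak in all E1 and no E4 libraries, 635, 592, 706 and 688 had no peak in E0 replicates 1, 2, 3 and 4. Regions kept out by a single E0 library numbered 39, 62, 12 and 11 for these replicates. E0 replicate 2, the library with the longest E0 list, removed the most.

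**Figure D1:**
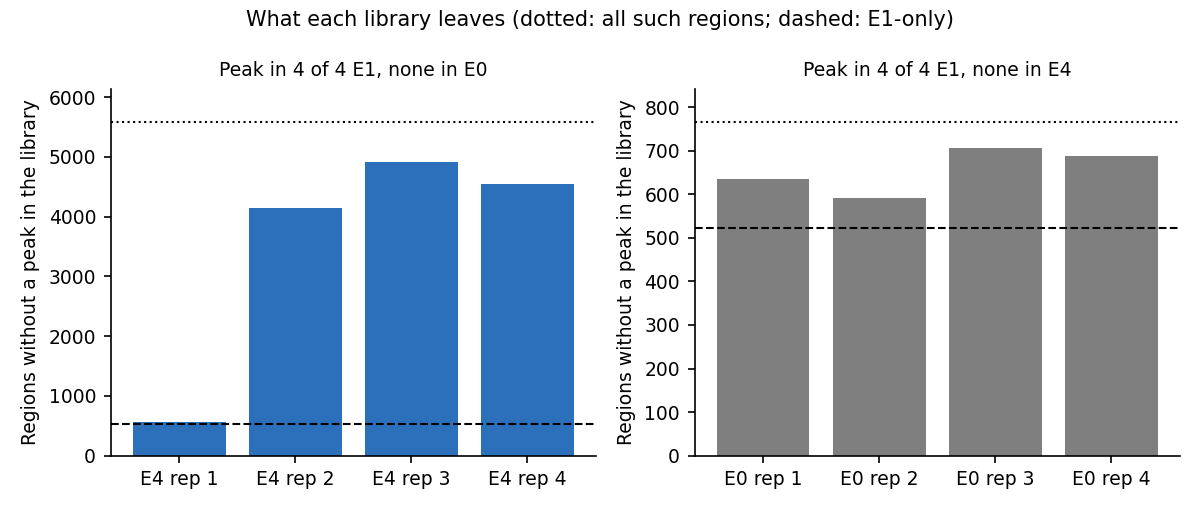
Bars give, for each E4 library (left) and each E0 library (right), how many candidate regions had no peak in it. Dotted lines mark all candidates (5579 left, 765 right) and dashed lines the 522 E1-only regions. The bar of E4 replicate 1 (566) lies just above the dashed line, while the other E4 bars reach 4149 to 4917.

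Leaving out 1 library at a time described how membership depended on each library. For each library in turn, regions were chosen by the rule in the other 11, and the share with a peak in the library left out was read. In each E1 library the regions with a peak were the 522 members themselves. In each E0 and E4 library the 522 members were the regions without one. The shares thus restate counts of members and near misses and are no independent support for the pattern. The 4 E1 libraries gave 65.9%, 65.2%, 55.4% and 43.6% for replicates 1 to 4, a mean of 57.6% ± 10.4 (SD, n = 4). The 4 E0 libraries gave 6.95%, 10.6%, 2.25% and 2.06%, a mean of 5.47% ± 4.11 (SD, n = 4). The E1 and E0 values did not overlap, but they are built from different counts, so this is no contrast between groups. E4 replicates 2, 3 and 4 gave 4.04%, 1.32% and 2.43%, all below every E1 library, and E4 replicate 1 gave 84.4%, above every E1 library.

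List length moves these shares, so each was set beside the other regions found in as many of the other 11 libraries. Those regions were called at rates of 47.2%, 46.6%, 29.4% and 24.0% in E1 replicates 1 to 4, and the regions chosen by the rule exceeded them by 1.40 to 1.89 times. In E0 the same background was 32.9%, 49.4%, 11.2% and 16.4%, and the chosen regions were at 0.126 to 0.215 times of it. In E4 replicates 2, 3 and 4 the background was 10.9%, 4.52% and 8.32% and the ratios were 0.369, 0.293 and 0.292. In E4 replicate 1 the background was 82.2% and the ratio 1.03. The choice for E4 replicates 2, 3 and 4 already required no peak in E4 replicate 1. Of the 566 E1-gained regions without that peak, 44 had one in another E4 library, so low shares there were nearly fixed beforehand. The background was not matched in this respect: of regions in exactly 4 of the 12 libraries, 82.8% had a peak in E4 replicate 1. The background of the E0 and E1 ratios was not matched either, since their chosen regions also had no peak in E4 replicate 1. No conclusion on presence at E1 or absence at E0 or E4 is drawn from any of these ratios. The 12 choices share libraries and regions were merged over all 12 lists, so no test was made on these shares.

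**Figure D2:**
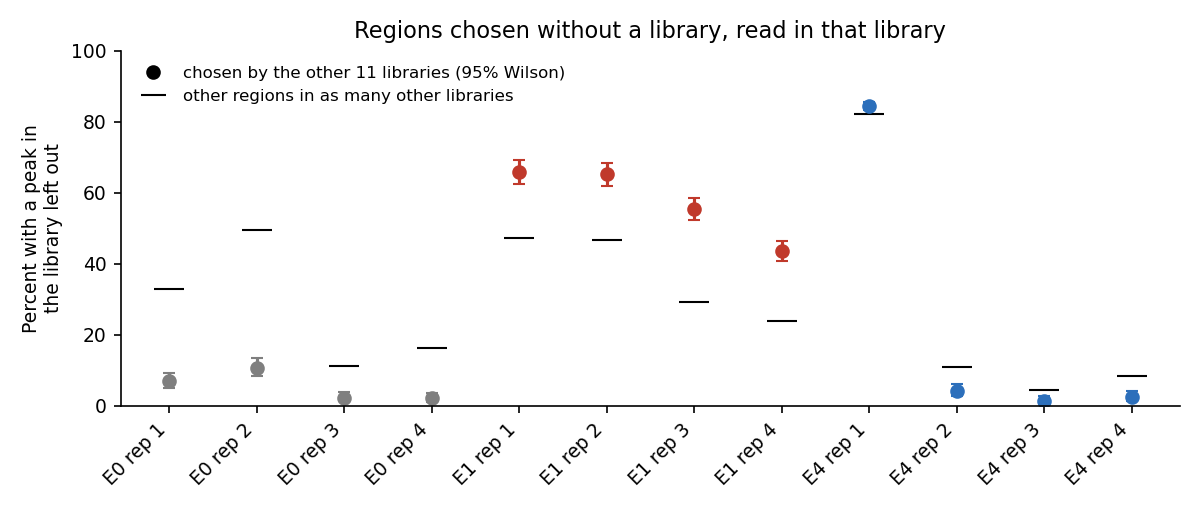
Coloured points give the percent of regions chosen by the other 11 libraries that had a peak in the library left out (grey E0, red E1, blue E4), with 95% Wilson intervals for counting error. Black dashes give the same percent for other regions held by as many other libraries, not matched for a peak in E4 replicate 1. Points lie above the dashes in the 4 E1 libraries, below them in E0 and in E4 replicates 2 to 4, and at 84.4% against 82.2% in E4 replicate 1.

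Regions found in exactly 4 of the 12 libraries show how common the E1-only combination was. There were 12723 such regions, in 377 of 495 possible combinations of libraries, and 82.8% of them had a peak in E4 replicate 1. The E1-only combination was the fourth most frequent, with 4.10% of these regions. It followed E1 replicates 1, 2 and 3 with E4 replicate 1 (1587 regions), E1 replicates 1, 2 and 4 with E4 replicate 1 (1067) and E0 replicate 2 with E1 replicates 1 and 2 and E4 replicate 1 (958). The E0-only combination ranked 26 and the E4-only combination 175. The E1-only regions were the most frequent combination without E4 replicate 1. The E1 lists held 64152 to 84776 peaks and those of E4 replicates 2 to 4 held 24426 to 34863. The part of list length in these ranks was not tested. With lists of equal length the rule found 335 E1-only, 326 E0-only and 32 E4-only regions.

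E1-only regions of the full rule had peaks mostly below the middle of their lists. The authors' score ranks peaks within a list, on a scale that no source used here states, so it was turned into a percentile of each list. The median member lay at percentile 44.4, 43.5, 43.8 and 40.1 of the lists of E1 replicates 1 to 4. The median scores of member peaks were 97.9, 97.2, 83.1 and 79.4, against 110.0, 111.8, 92.4 and 92.6 for all peaks of those lists. In all 4 libraries, 60.3% to 66.5% of members lay below the list's own median. The top decile of a list held 0, 0, 1 and 2 members in E1 replicates 1 to 4, and the lowest decile held 51, 45, 49 and 56. The low rank rests in part on 1 library, since the median of the mean percentile over the E1 lists was 40.7 with the full rule and 51.1 without E4 replicate 1. Among all 35902 regions with a peak in 4 of 4 E1 libraries, members included, this median was 70.4.

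The scores of a member also varied from library to library. For 140 members all 4 E1 peaks lay below their lists' medians, for 33 all 4 lay above, and for 349 the libraries were split. The median SD of the percentile over the 4 E1 libraries was 17.4, and the highest score of a member was 1.93 times its lowest at the median. Across the 522 members, Spearman's rho of scores between pairs of E1 libraries ran from 0.153 to 0.365, where the 4882 regions gained at E1 and called in 1 to 3 E4 libraries gave 0.337 to 0.620. These are descriptions across regions, which share their libraries, and the members cover a narrower range of scores.

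The score in E1 mice went with the number of E4 libraries that held a region. Among regions with a peak in all E1 and no E0 libraries, the median of the mean percentile over the E1 lists was 40.7 for the E1-only regions. It was 52.7, 60.3, 68.9 and 78.0 for those called in 1, 2, 3 and 4 E4 libraries. Widths were taken from the E1 peaks alone, since the width of a merged region includes any E4 peaks in it. The mean width of a region's E1 peaks had a median of 329 bp for the E1-only regions and of 358, 393, 440 and 492.5 bp for the others, in the same order. The interquartile ranges of members and of the 175 regions kept in 4 of 4 E4 libraries did not overlap, at percentiles 31.4 to 51.3 and 67.0 to 86.4. Members and regions called in 1 E4 library overlapped broadly. No test was made, because the scores come from the libraries that chose the regions and regions are not replicates of a condition.

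**Figure D3:**
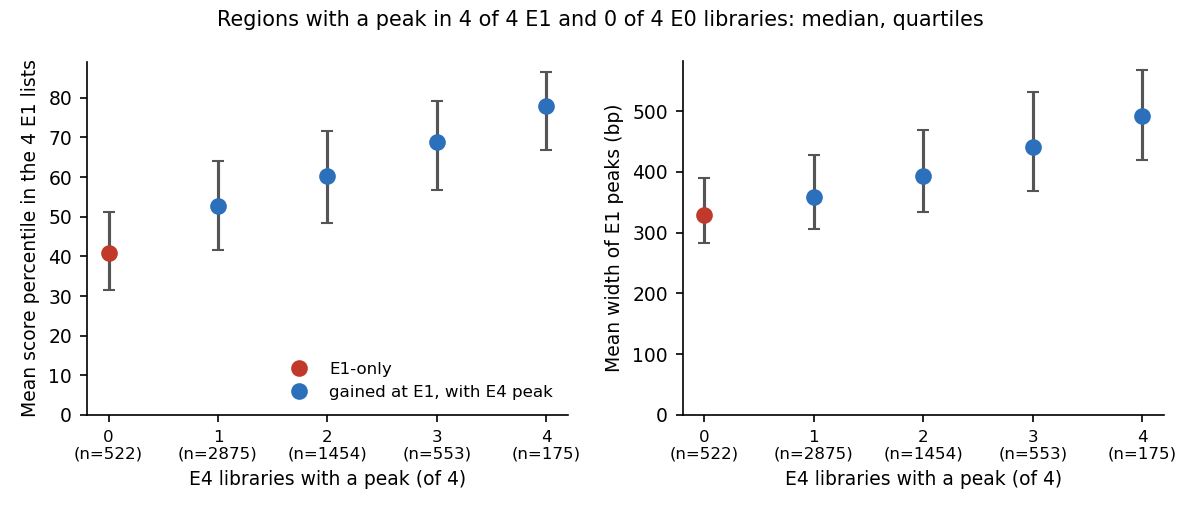
Points are medians and bars quartiles of the mean score percentile in the E1 lists (left) and of the mean width of the E1 peaks in bp (right), by the number of E4 libraries with a peak, for regions with a peak in 4 of 4 E1 and 0 of 4 E0 libraries. The E1-only regions (red, 0 E4 libraries) have the lowest medians, 40.7 and 329 bp, and the regions in 4 E4 libraries the highest, 78.0 and 492.5 bp.

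The same relation appears as the share of E1-gained regions that had no E4 peak. In the quintile of E1-gained regions with the lowest mean percentile, 255 of 1116 (22.8%, 95% Wilson interval 20.5 to 25.4) were E1-only. The share was 12.01%, 6.996% and 3.94% in the next quintiles and 0.986% (0.551 to 1.76) in the highest, where 11 of 1116 regions were E1-only. From the narrowest to the widest quintile of mean E1 peak width it was 17.3%, 10.3%, 9.56%, 6.19% and 3.399%. The part of detection at low scores in this relation was not tested.

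**Figure D4:**
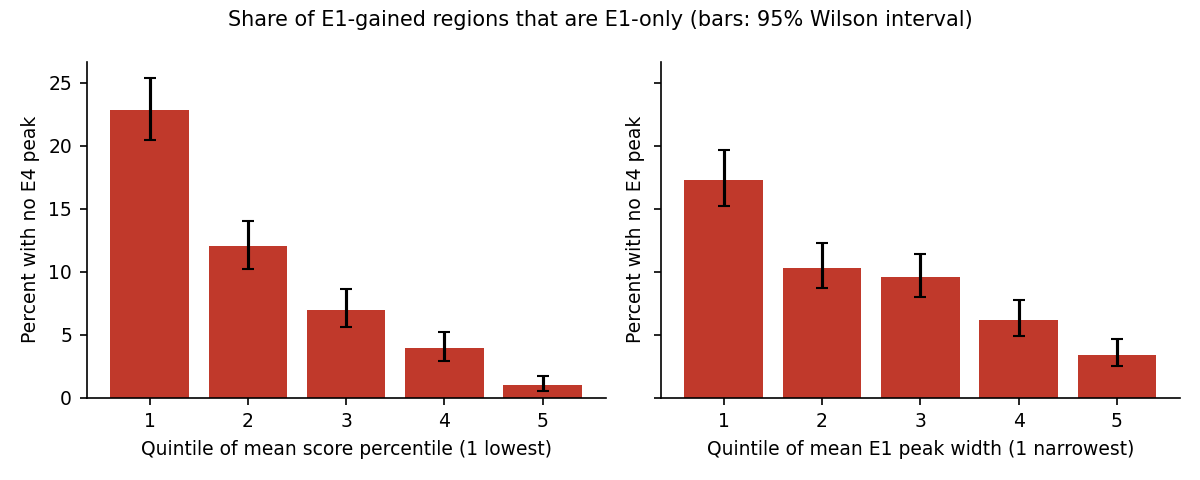
Bars give the percent of E1-gained regions with no E4 peak in each quintile of the mean score percentile (left) and of the mean width of the E1 peaks (right), with 95% Wilson intervals for counting error. The share is 22.8% in the lowest and 0.986% in the highest quintile of percentile.

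Regions just outside the rule differed by what kept them out. Widths here are of merged regions and include any outside peak, so they are not like for like with the members' median of 457 bp. The 124 regions that missed the rule by 1 E0 library were close to the members, with a median percentile of 42.3 and a median width of 495 bp. The 1642 that missed it by 1 E1 library were weaker, at percentile 32.1 and 401 bp. Their values come from 3 E1 libraries in place of 4, and merging fewer peaks tends to give a narrower region. In 674 of these 1642 the missing library was E1 replicate 4, which had the shortest E1 list, against 270, 278 and 420 for E1 replicates 1, 2 and 3. The 2833 regions that E4 replicate 1 alone kept out were stronger, at percentile 52.7 with a width of 524 bp. Their peak in E4 replicate 1 was of middling rank there, with a median score of 142.7 at percentile 52.1 (quartiles 34.6 to 66.5). The peaks of E0 libraries that alone kept a region out were weak, at median percentiles of 14.3 to 26.8 of their lists. Lone peaks of E4 replicates 2, 3 and 4 concerned 22, 7 and 13 regions, at median percentiles of 28.9, 30.9 and 29.0.

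Cutting every list to equal length kept few members, because they had low scores. The cut fell at scores of 187.1, 187.7, 123.4 and 114.2 in E1 replicates 1 to 4, and 6 members reached it in all 4. Of the 335 E1-only regions then found, 6 overlapped a member (1.79% of the 335), and these were 1.15% of the 522 members. In the full lists, 328 of the 335 (97.9%) had a peak in an E4 library, 327 of them in E4 replicate 1, and 185 (55.2%) had a peak in an E0 library. The members are thus tied to the lists as deposited, including their unequal lengths.

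The members were narrow and their 4 E1 peaks overlapped in part, as merging by shared bases favours. Widths ran from 242 to 5298 bp with a median of 457 bp, 8 members were 1 kb or wider, and together they covered 261256 bp. Single peaks of members had median widths of 339, 380, 300 and 272 bp in E1 replicates 1 to 4, against 369, 422, 319 and 295 bp for all peaks of those lists. At the median, 209 bp (45.8% of the region) lay in all 4 peaks and the peak midpoints spanned 89.5 bp. In 9 members (1.72%) no base was shared by all 4. For the regions gained at E1 and called in 1 to 3 E4 libraries, 240 bp (43.9%) lay in all 4 peaks and the midpoints spanned 85 bp. In 1.07% of them no base was shared by all 4.

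Members were spread over all 20 chromosomes. Chromosome 1 held the most, 57, followed by chromosomes 2 with 41 and 10 with 40, and chromosome 19 held 4. As a share of the E1-gained regions of a chromosome, they ran from 5.26% on chromosome 19 (95% Wilson interval 2.07 to 12.8) to 11.4% on chromosome 7 (7.25 to 17.5), and the intervals of these extremes overlapped.

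The spacing of E1-only regions was read beside that of other sets, whose own sizes move it. Another member lay within 50 kb of 14 members (2.68%), in 7 pairs, and the median distance to the next member was 1356656.5 bp. With E4 replicate 1 left out, and 3394 members, the share was 21.1%. Of the 4882 regions called in 1 to 3 E4 libraries, 28.5% had another of their kind as near, and of the 175 in 4 of 4 none had. Within 50 kb, 177 members (33.9%) had some region gained at E1 from E0, against 31.9% of those called in 1 to 3 E4 libraries and 29.7% of those in 4 of 4. A region kept in 4 of 4 E4 libraries lay within 50 kb of 6 members, and an E0-only region within 50 kb of 1. Regions open in all 12 libraries were about as near to members as to merged regions in general: 45 members (8.62%) lay within 10 kb of one, against 7.88% of all merged regions, and the median distances were 86505 and 83212.5 bp.

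The members fell in 456 windows of 1 Mb, 398 of which held 1 member. One window stood out after the counts were seen, chr2:78000001-79000000, where 5 of 7 E1-gained regions were E1-only. Its members lay at chr2:78385385-78385809, chr2:78420208-78420600, chr2:78541828-78542232, chr2:78602358-78602835 and chr2:78760478-78760823. They were ordinary in strength, with mean scores of 75.8 to 99.4 and mean percentiles of 32.1 to 45.5. By contrast, the window with the most E1-gained regions, chr3:136000001-137000000, had 16 of them and 2 members.

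Peaks elsewhere came close to many members. The nearest E0 or E4 peak outside the region lay at a median of 3989 bp, 108 members (20.7%) had one within 1 kb and 12 within 100 bp, while 118 (22.6%) had none within 10 kb. By library, peaks within 10 kb were found for 51.9%, 58.8%, 35.2% and 41.0% of members in E0 replicates 1 to 4. The E1 libraries gave 62.8%, 62.1%, 57.3% and 56.9%, and E4 replicates 1 to 4 gave 67.6%, 31.4%, 21.6% and 28.0%. These shares went with list length, and the regions gained at E1 and called in 1 to 3 E4 libraries gave similar ones (51.0%, 59.5%, 33.5% and 39.7% in E0). Members were thus not set in stretches that lacked peaks in the other mice.

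The member with the highest mean percentile was also the widest, at chr13:111188658-111193955. It was 5298 bp wide where the median member had 457 bp, and each E1 library had 1 long peak in it. Scores were 222.4, 293.9, 382.5 and 490.2 in E1 replicates 1 to 4, with a mean of 347 ± 116 (SD, n = 4). The peak was 4843, 3763, 3111 and 2378 bp long in these libraries, which placed it among the 7, 49, 10 and 18 widest peaks of their lists. The 4 peaks shared 2361 bp. A region open in all 12 libraries, chr13:111183844-111187667, ended 990 bp before it, and every E0 and E4 library had a peak 1254 to 3204 bp away. The E1 mice thus had a long accessible stretch beside a site that was open in all groups.

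The next members were short and lay in different surroundings. The region at chr10:43409436-43410127 scored 253.8, 342.2, 220.8 and 266.1, and peaks of E0 replicates 1 and 2 and E4 replicate 1 lay only 183, 109 and 176 bp from its edges. Peaks of the other 5 E0 and E4 libraries were 32915 to 40327 bp away. Merging peaks up to 500 bp apart joins the first 3 to the region and ends its membership. The region at chr8:36470138-36470641 had the most even scores of the 10 highest, 257.6, 288.3, 247.3 and 255.2, a mean of 262 ± 18.04 (SD, n = 4). The nearest E0 or E4 peak was 21172 bp away, and another member, at chr8:36512718-36513212, lay 42076 bp further on with scores of 53.6 to 86.4.

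The region at chr11:18277253-18277789 scored 279.9, 219.2, 204.2 and 198.8, and its nearest outside peak was 2353 bp away in E4 replicate 1. At chrX:142995299-142995734 the scores were 166.6, 287.6, 167.3 and 252.6, and the nearest E0 or E4 peak was 51142 bp away. The region at chr1:133014983-133015632 scored 204.2, 315.5, 194.0 and 150.5. Every E0 and E4 library had a peak 789 to 1320 bp from it, and a region open in all 12 libraries lay 6350 bp away. It was thus a neighbour of sites that were called in the other mice.

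Of the last 4 of the 10, the region at chr14:112706033-112706548 scored 350.3, 119.2, 157.2 and 198.5, with a lone high value in E1 replicate 1. The regions at chr8:53672526-53672997 and chr17:61652799-61653316 had mean scores of 183 ± 42.0 and 183 ± 52.9 (SD, n = 4). The region at chrX:165533437-165533876 had 173 ± 24.1 (SD, n = 4). In these 10 regions all 40 scores lay above the medians of their lists, the lowest being 119.2 at percentile 53.0. This follows largely from the choice, since the 10 were picked by their mean percentile in the same lists.

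**Figure D5:**
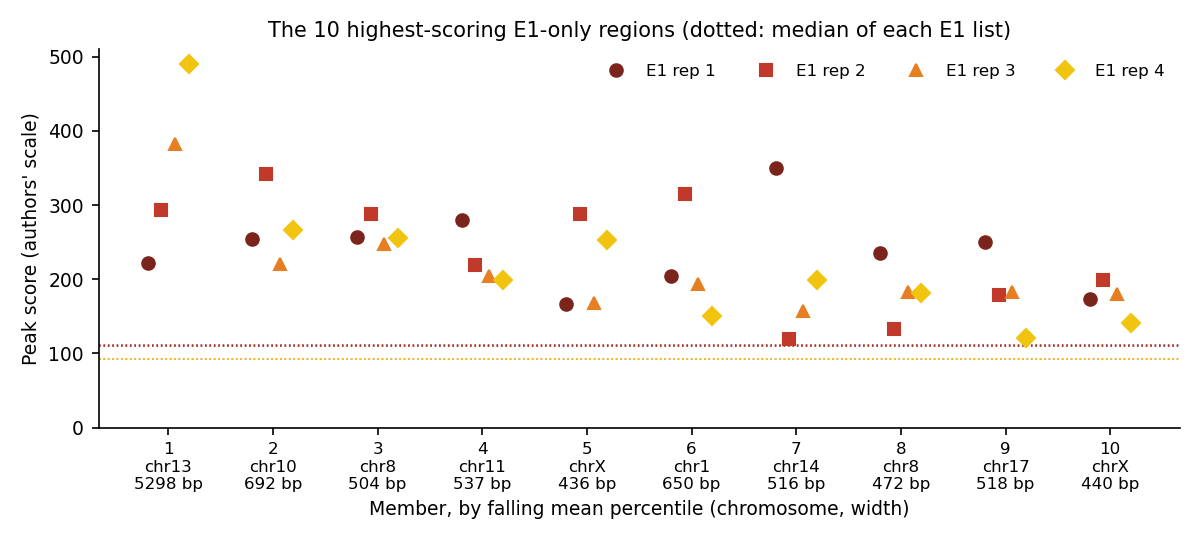
Points give the peak score in each of the 4 E1 libraries for the 10 E1-only regions with the highest mean percentile, labelled by chromosome and width in bp, and dotted lines the median score of each E1 list. All points lie above the lines, from 119.2 to 490.2, and the first region is 5298 bp wide where the others have 436 to 692 bp.

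The other wide members were loosely built. At chr14:70482495-70485040 (2546 bp) the peaks spanned 1013, 2091, 981 and 308 bp in E1 replicates 1 to 4 and shared 308 bp, and E1 replicate 3 had 2 peaks there. At chr3:138482889-138484546 (1658 bp) they spanned 1658, 1511, 374 and 440 bp and shared 286 bp, with a peak of E0 replicate 4 only 231 bp away. The width of these regions came mostly from 1 or 2 libraries.

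At the other end were members barely above the lowest scores of the lists, which were 50 in all E1 lists. The region at chr5:53599937-53600353 scored 50.2, 62.4, 55.4 and 52.2. The regions at chr1:158423606-158423926 and chr13:37765169-37765694 scored 53.5 to 59.7 and 52.5 to 60.4. In all, 113 members scored below 100 in every E1 library, 35 scored 100 or more in every one, and 25 had a mean percentile below 20.

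Of the 7 pairs of members within 50 kb, the first 3 along the genome can be given. Those on chromosome 2 lay at chr2:78385385-78385809 with chr2:78420208-78420600, 34398 bp apart, and at chr2:79536944-79537416 with chr2:79553359-79553708, 15942 bp apart. Mean scores in the first pair were 75.8 ± 11.6 and 85.7 ± 23.6 and in the next 106 ± 18.7 and 79.7 ± 18.6 (SD, n = 4). The third was the pair on chromosome 8 given above, which joined one of the strongest members to one with a mean percentile of 23.2.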

How the data were processed

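ATAC-seq peak lists of 12 libraries were used, 1 list per library and 4 libraries a group, with groups taken from the sample titles. Scores were used as deposited, and their scale is unstated in the sources used here. Peak names carry the prefix of MACS, per the file contents. The submitters' processing notes name Bowtie2 and mm9. No source used here states the caller's control and threshold, whether reads were shifted for the transposase, or how duplicates and blacklisted regions were treated; each of these can move peak edges or list length. The last peak on chromosome 1 ended at 197105523, beyond the last GRCm38 gene end of 195291439, so the GRCm38 tables were not joined to the lists.

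Peaks on chromosomes 1 to 19 and X that shared at least 1 bp were merged with Python 3.11.15 and NumPy 2.4.6. The 170710 regions were the same as those of bedtools 2.31.1, and the selection was tested on simulated lists. Peaks on other chromosomes (9 to 43 per list) were left out. Percentiles are ranks of the score within a list. Shares carry 95% Wilson intervals (SciPy 1.17.1), which cover counting error only. No test between groups was made, since the rule used all 12 libraries, and Dixon's test served only to list values of single libraries that lie apart. Members, comparisons and the rule for named regions were chosen with earlier results of these data known. The rule names the 10 members of highest and the 3 of lowest mean percentile, the 3 widest and 3 of the pairs within 50 kb, leaving out chromosome 18. The sample titles number the replicates, each was taken as a separate mouse, and no batch is named.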

Additional observations from a re-analysis of the deposited data

Results flagged for a closer look

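Dixon's test was run on 43 groups of 4 values per library, of which chance would flag about 1 in 20, and 4 values lay apart from their group. All 4 belong to E4 replicate 1, come from the same list and are not independent of one another or of the rule. Its list was the longest in the group with 104120 peaks, while the remaining lists had 24426 to 34863. In it, 84.4% of the regions chosen by the other 11 libraries had a peak, against 1.32% to 4.04% in the other E4 libraries. It alone kept 2833 regions out of the E1-only set, against 7 to 22 for each other E4 library. A peak of it lay within 1 kb of 13.0% of the members, against 1.53% to 3.45% in the other E4 libraries. The part of its depth in these values was not tested.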

How the results depend on the processing

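The number of E1-only regions was 399 to 518 under 6 alternatives (merging of peaks up to 100 or 500 bp apart, joining within lists first, peaks covering 50% of the region, a score of at least 70, and no outside peak within 1 kb). It was 216 with a score of at least 100 and 335 with lists of equal length. Leaving out 1 library at a time gave 529 to 3394, the highest without E4 replicate 1, and 793, 801, 941 and 1197 without E1 replicates 1 to 4, where 3 E1 libraries then suffice. E0-only regions numbered 38 and 326 under the score of 100 and equal length, and 85 to 298 with 1 library left out. E4-only regions numbered 1 and 32 under these settings, 0 with 50% of the region covered, and 6 to 28 with 1 library left out. The median width was 560 and 643 bp with a score of 100 and equal length, and 395 to 489 bp with 1 library left out. The median percentile was 45.7 with 50% covered, 36.0 with a score of 100, and 35.4 to 51.1 with 1 library left out, again highest without E4 replicate 1. Members within 50 kb of another were 2.62% to 21.1% with 1 library left out, and 0.383% and 13.8% at distances of 10 and 200 kb. Members within 10 kb of a region open in all libraries were 6.27%, 4.17% and 3.88% with scores of 70 and 100 and equal length, 0% with 50% covered, where 158 regions were open in all libraries in place of 9037, and 7.98% to 12.1% with 1 library left out. The share of E1-gained regions without an E4 peak was 10.8% with 50% covered, 6.32% with a score of 100, 16.2% with equal length, 7.42% with no outside peak within 1 kb, and 7.53% to 60.1% with 1 library left out. The mean share in left-out E1 libraries was 68.2% with equal length. The use of these settings for left-out libraries was added after seeing the data. The other 135 values moved by less than the spread between libraries, their interval or 1.5 times. The cause of the changes was not tested. No paired analysis was possible because the results come from no test. Sequence motifs were not run, as no genome of the build of the lists was used here. Depth is unknown, so weak regions limit what can be said of absence.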
